A study of Saccharomyces cerevisiae with 8 samples.

Results

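The genes described here encode 9 transcription factors that switch on respiration and the use of nonfermentable carbon in budding yeast: CAT8, SIP4, ADR1, RDS2, HAP1, HAP2, HAP3, HAP4 and HAP5. They were picked by gene name from the 6256 genes on the array, and all 9 were measured, each with 1 probe printed in 2 spots. RNA came from 4 samples of the pressure-sensitive mutant a924E1 and 4 of the parent strain, KA31a. Cells of either strain had been cultured for 48 h at 30 °C in rich medium with 2.0% glucose, and the labels name no pressure treatment and no mutated gene. The comparison asks whether the transcripts of these activators, and of the genes they act on, differed between mutant and parent in such cultures.

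Yeast that has glucose ferments it and keeps respiratory and gluconeogenic genes repressed. When glucose runs out, the Snf1 kinase inactivates the repressor Mig1 and turns on a small set of activators. Cat8 and its relative Sip4 bind the carbon source response element of gluconeogenic and glyoxylate cycle genes, Adr1 acts on ethanol and fatty acid oxidation genes, and Rds2 works beside Cat8 at gluconeogenic genes. Hap2, Hap3 and Hap5 together bind the sequence CCAAT in front of many respiratory genes, and Hap4 is the subunit that activates transcription once it joins them. Hap1 is a separate zinc cluster protein that responds to heme.

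Levels below are log2 spot intensities after background correction and quantile normalization, averaged over the 2 spots, and differences are mutant minus parent. Above background means that neither spot of the gene fell under a signal-to-noise ratio of 3 on that array. Median signal over background ran from 5 to 112 intensity units on the mutant arrays and from 15 to 182 on the parent arrays, so the dimmer arrays carry little information on weak genes. Of the 9 activators, 8, 7, 3 and 2 were above background on mutant arrays 1, 3, 5 and 7, and 9, 9, 8 and 4 on parent arrays 2, 4, 6 and 8. Mutants 5 and 7 and parent 8 were scanned at the higher photomultiplier gain of 700 and the other 5 arrays at 600. Fits within gain 700 alone thus have 1 parent array, so whether genes pass there carries little weight either way. The mutants filled 1 column of a single slide and the parents its other column, so strain cannot be told apart from slide column.

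SIP4, RDS2, HAP1 and HAP3 fell in the mutant and HAP4 and HAP5 rose, while CAT8, ADR1 and HAP2 did not pass the test (limma, Benjamini-Hochberg adjustment over all genes, threshold 0.05). Apart from SIP4, for which only an approximate bound can be given, these changes ranged from 1.42-fold to 1.92-fold. The 1.92-fold is that of HAP4, whose log2 difference went from 0.94 to 0.73 when a spot in a dim patch was left out. RDS2, HAP1, HAP3 and HAP5 were above background on only 2 mutant arrays. Of the 9 genes 2 were called higher and 4 lower, where 12.7% of all genes were called higher and 14.0% lower, 26.6% together. For the same 6 genes the mutant and parent values did not overlap, which held for 29.9% of all genes. These shares count many genes at background. When each of the 4 arrays of either strain had to detect a gene, 4 activators were left. Of these 2 were called, 1 higher and 1 lower, near the share for all genes so kept, 738 of 1536. With the arrays scaled to a common 75th percentile or median instead of quantile-normalized, 0 of the 9 passed (3 at an unadjusted p under 0.05 by limma with either scaling), and all genes called were then 57 and 37, each of them lower. Every one of the 9 kept its direction in the 24 to 26 alternatives in which it could be fitted. These alternatives reuse the same arrays, so a kept sign is no separate evidence of a difference. By slide row, for example, ADR1 was lower in the mutant in 2 rows and higher in 2.

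**Figure D1:**
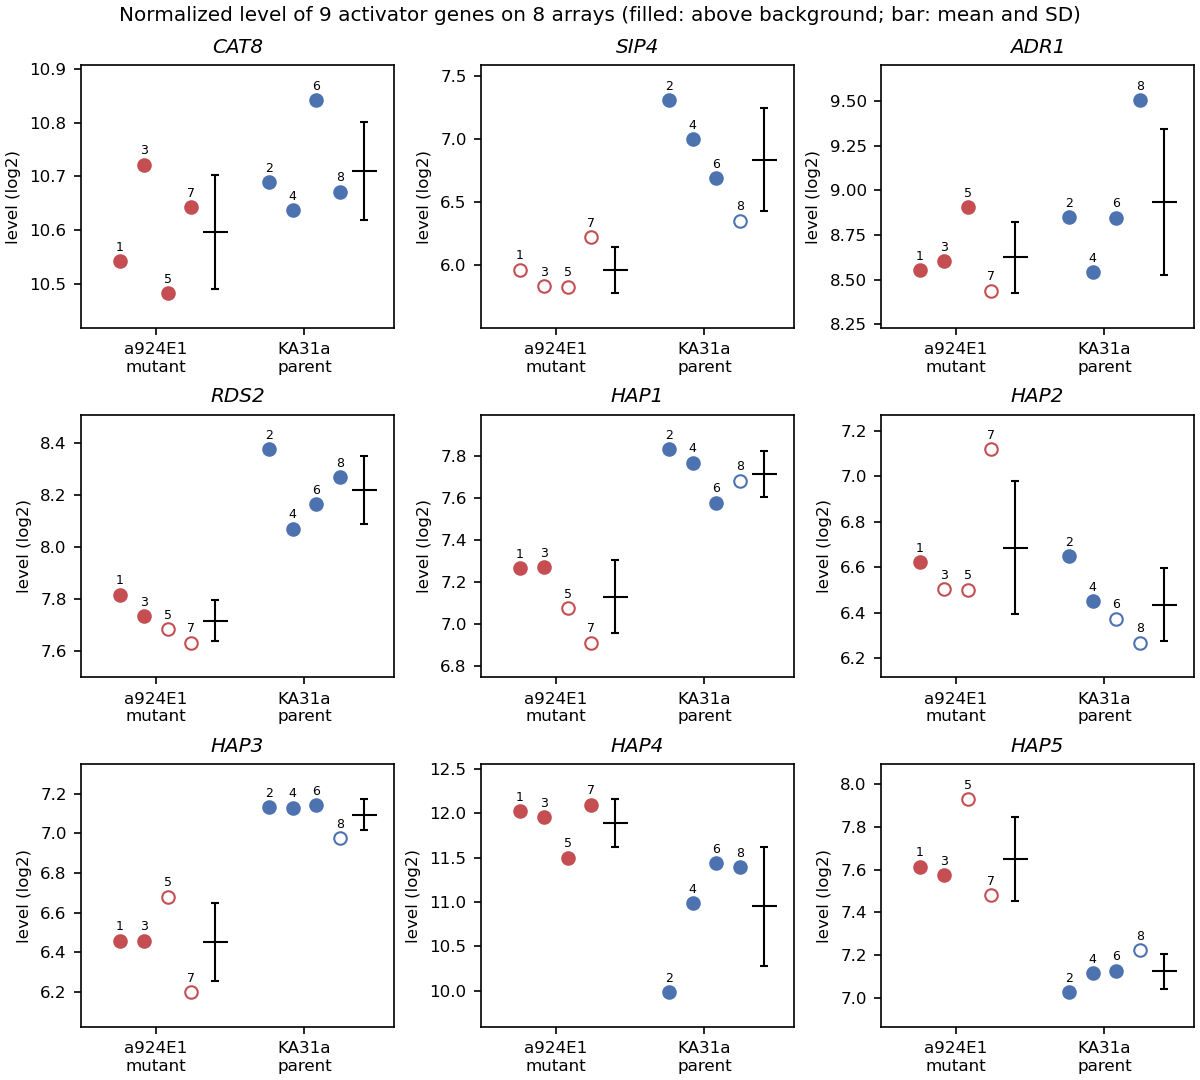
Normalized log2 level of each activator gene (vertical axis, its own range in each panel) on the 4 mutant arrays (red) and the 4 parent arrays (blue), numbered as in the sample titles, with the mean and SD as a bar. Filled points are above background; the strains are apart for SIP4, RDS2, HAP1, HAP3, HAP4 and HAP5 and overlap for CAT8, ADR1 and HAP2.

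CAT8 encodes the activator that gluconeogenic genes depend on, and its own transcription is glucose-repressed. CAT8 had levels of 10.54, 10.72, 10.48 and 10.64 on mutant arrays 1, 3, 5 and 7, against 10.69, 10.64, 10.84 and 10.67 on parent arrays 2, 4, 6 and 8. The strains overlapped, and the transcript was bright, above background on all 8 arrays. The difference was -0.11 ± 0.10 (SE, n = 4 per strain, limma adjusted p = 0.456), with a 95% interval from -0.34 to 0.11. The difference stayed between -0.31 and -0.03 under every alternative run.

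SIP4 encodes a zinc cluster activator that interacts with the Snf1 complex and whose gene is itself switched on by Cat8. SIP4 read 5.96, 5.83, 5.83 and 6.22 on the mutant arrays, against 7.31, 6.998, 6.69 and 6.35 on the parent arrays. Every mutant value lay below every parent value. In unnormalized units the signal over background was 11, 6, -0.5 and 1 on mutants 1, 3, 5 and 7, and 276.5, 216.5, 42.5 and 5.5 on parents 2, 4, 6 and 8. The gene was therefore at background on all 4 mutant arrays and above it on 3 of 4 parent arrays.

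The fitted difference of SIP4 was -0.88 ± 0.19 (SE, n = 4 per strain, limma adjusted p = 0.00501). Because the mutant signal was at background, only an approximate bound on the fold can be given, 1.03-fold lower on the normalized scale. Parent 8, where SIP4 was also at background, entered that bound at its own reading, so the bound is not strict. That bound is small because the lowest level that counts as above background is itself high on mutants 5 and 7. Among the arrays of gain 600 alone the difference was -1.10. Among those of gain 700 it was -0.33, where no array had SIP4 above background. With a normexp offset of 16 in place of 50 it was -1.43.

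ADR1 encodes a zinc finger activator of alcohol dehydrogenase 2 and of peroxisomal genes. ADR1 stood at 8.55, 8.60, 8.90 and 8.44 on the mutant arrays, against 8.85, 8.54, 8.85 and 9.51 on the parent arrays. The strains overlapped, and parent 8 was the highest array. The difference was -0.31 ± 0.19 (SE, n = 4 per strain, limma adjusted p = 0.258), with a 95% interval from -0.72 to 0.10. Without parent 8 it was -0.12.

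RDS2 encodes a zinc cluster protein that activates gluconeogenic genes after the shift to nonfermentable carbon. Its level was 7.82, 7.73, 7.68 and 7.63 on the mutant arrays, against 8.38, 8.07, 8.17 and 8.27 on the parent arrays. The strains were apart, the mutant was lower in each of the 4 slide rows, with differences from -0.64 to -0.34, and RDS2 was above background on 2 mutant arrays and 4 parent arrays. The difference was -0.51 ± 0.10 (SE, n = 4 per strain, limma adjusted p = 0.00416), or 1.42-fold lower. With 1 spot per probe in place of the mean of 2, the adjusted p was 0.0941 for spot 1 and 0.0569 for spot 2.

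HAP1 encodes the heme-responsive activator of cytochrome and sterol genes. In the reference strain S288C this gene carries a transposon insertion, and the labels do not say which form KA31a has. HAP1 gave 7.27, 7.27, 7.07 and 6.91 on the mutant arrays, against 7.83, 7.77, 7.58 and 7.68 on the parent arrays. No mutant value reached the lowest parent value. The difference was -0.58 ± 0.11 (SE, n = 4 per strain, limma adjusted p = 0.00327), or 1.50-fold lower, with 2 mutant and 3 parent arrays above background. It was -0.46 within gain 600 (limma adjusted p = 0.0195) and -0.69 within gain 700, which has 1 parent array.

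The 4 genes of the CCAAT-binding complex did not move together. HAP4, for the activating subunit, and HAP5, for a subunit of the histone-fold pair, rose, HAP3, for its partner in that pair, fell, and HAP2, for the third DNA-binding subunit, did not pass. HAP3 was at 6.46, 6.46, 6.68 and 6.20 on the mutant arrays, against 7.13, 7.13, 7.14 and 6.98 on the parent arrays. Its strains were apart, with the parent values closely grouped. The difference was -0.64 ± 0.12 (SE, n = 4 per strain, limma adjusted p = 0.00198), or 1.56-fold lower, with detection on 2 mutant and 3 parent arrays, and from spot 1 alone it was -0.45 (adjusted p = 0.0636).

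HAP5 read 7.61, 7.57, 7.93 and 7.48 on the mutant arrays, against 7.03, 7.12, 7.13 and 7.22 on the parent arrays. All mutant values were above all parent values, although only 2 mutant and 3 parent arrays had HAP5 above background. The difference was 0.52 ± 0.12 (SE, n = 4 per strain, limma adjusted p = 0.00639), or 1.44-fold higher. The size depended on the spot, at 0.75 from spot 1 (adjusted p = 0.0261) and 0.30 from spot 2 (adjusted p = 0.280). In unnormalized units the 2 spots gave 116 and 39 on mutant 5 and 20 and 6 on mutant 7, while on the other 6 arrays they were nearer each other.

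HAP2 was the weakest of the complex on these arrays in detection, above background on 1 mutant and 2 parent arrays. Its level was 6.62, 6.50, 6.50 and 7.12 on the mutant arrays, against 6.65, 6.45, 6.37 and 6.27 on the parent arrays. The strains overlapped, since parent 2 lay above 3 of the 4 mutant arrays, and mutant 7, the dimmest array, was the highest. The difference was 0.25 ± 0.15 (SE, n = 4 per strain, limma adjusted p = 0.256), with a 95% interval from -0.08 to 0.58, and it was 0.07 within gain 600.

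**Figure D2:**
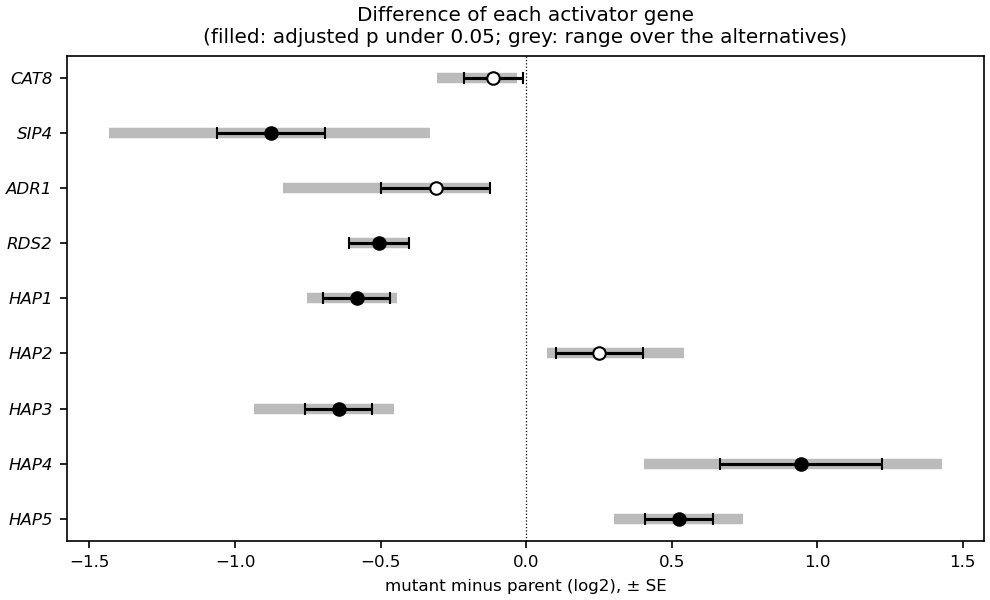
Difference of each activator gene between mutant and parent in log2 (horizontal axis), as the estimate with its SE (n = 4 per strain) and, in grey, the range over the alternatives in which it could be fitted. Filled points passed the adjusted threshold; no range crosses 0, the widest are those of SIP4 (-1.43 to -0.33) and HAP4 (0.41 to 1.43).

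HAP4 had the largest rise of the 9 and the least stable one. HAP4 encodes the limiting subunit of the complex, and its transcription is repressed by glucose. Its level was 12.02, 11.96, 11.50 and 12.10 on mutant arrays 1, 3, 5 and 7, against 9.98, 10.98, 11.44 and 11.39 on parent arrays 2, 4, 6 and 8. The strains were apart, but only just, since mutant 5 lay 0.06 above parent 6, its neighbour in the slide row. Parent 2 stood far below the other parent arrays. The difference was 0.94 ± 0.28 (SE, n = 4 per strain, limma adjusted p = 0.0273), or 1.92-fold higher, and HAP4 was above background on all 8 arrays.

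The low value of parent 2 came from 1 of the 2 HAP4 spots. Spot 1 had 1262 intensity units over background on parent 2 and spot 2 had 4841, while on the other 7 arrays spot 1 was the brighter one, for example 9393 against 5645 units on mutant 1 and 6533 against 4887 on parent 4. The spots on parent 2 differed by 1.75 on the log2 scale, and only 35 of 6256 probes on that array differed by more. Neither spot was marked by the scanner software.

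**Figure D3:**
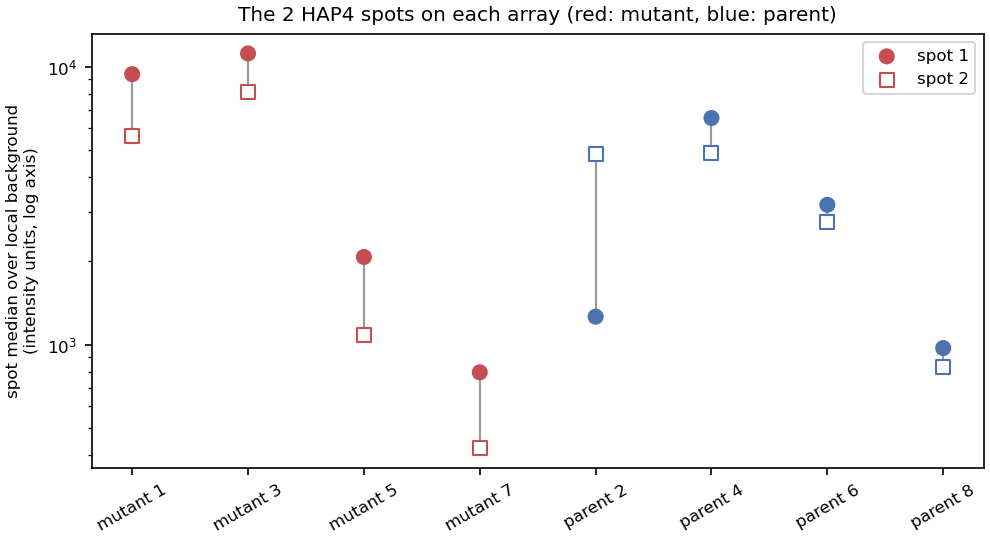
Spot median over local background of the 2 HAP4 spots (intensity units, log axis) on each of the 4 mutant arrays (red) and 4 parent arrays (blue). Spot 1 (filled) is brighter than spot 2 (open) on 7 arrays and is the dimmer one on parent 2, at 1262 against 4841 units.

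HAP4 spot 1 lay inside a round dim patch of parent array 2. All 29 of the other spots within 260 µm of it were lower on parent 2 than on the mean of parents 4, 6 and 8, with a median of -0.81 on the log2 scale, against 8 of 40 spots and a median of 0.06 around HAP4 spot 2. Spots with such a neighbourhood, below -0.5, numbered 928 of 12512 (7.42%) on parent 2, 173 on mutant 5 and 0 on the other 6 arrays. No other spot of the 9 activators lay in such a patch on any array. This measure was chosen after the HAP4 values had been seen.

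**Figure D4:**
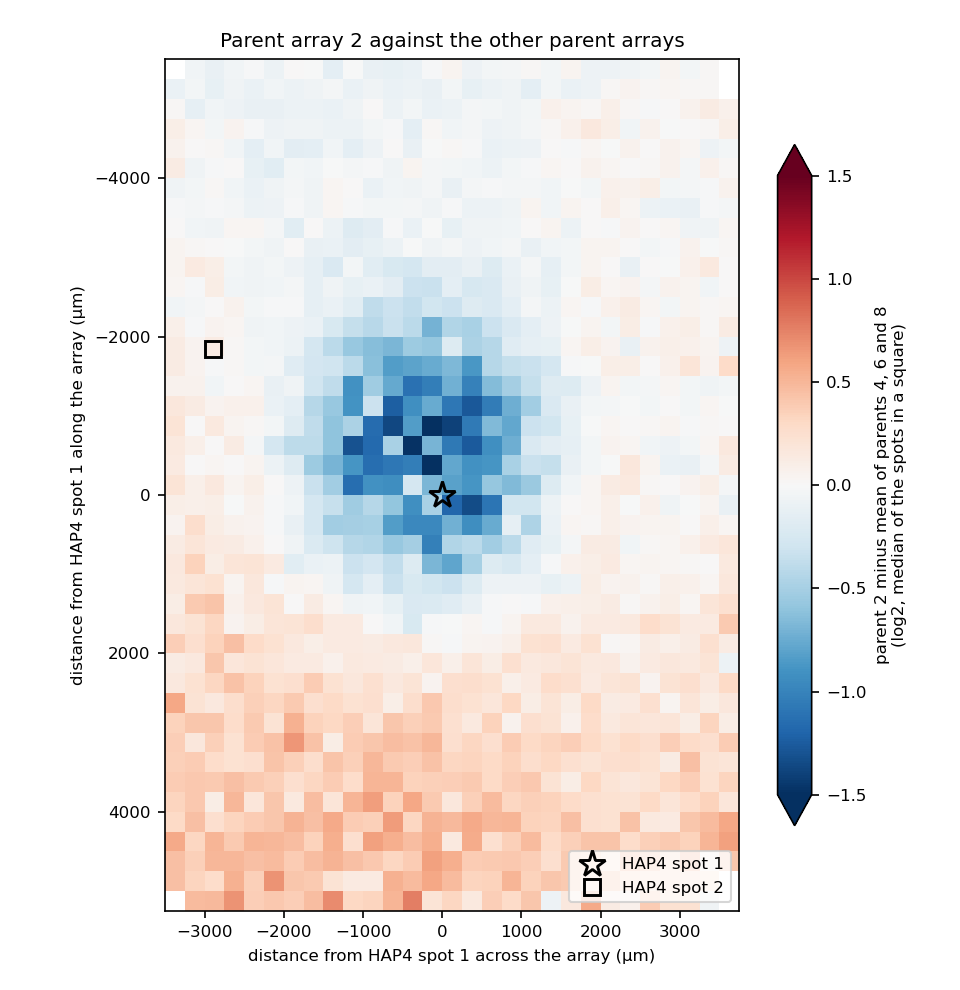
Map of parent array 2, with distance from HAP4 spot 1 across and along the array in µm, coloured by the median log2 difference between parent 2 and the mean of the other 3 parent arrays in squares of 250 µm. A round area of low values (blue) holds HAP4 spot 1 (star), where the neighbouring spots had a median of -0.81, and not HAP4 spot 2 (square), where it was 0.06.

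With patch spots left out, so that parent 2 rested on spot 2, HAP4 was at 10.86 on parent 2 and averaged 11.89 ± 0.27 in the mutant and 11.17 ± 0.29 in the parent (SD, n = 4 each). The difference was then 0.73 ± 0.17 (SE, n = 4 per strain, limma adjusted p = 0.00684). Without parent 2 it was 0.62 (adjusted p = 0.0226). From spot 2 alone on all arrays the difference was 0.46 (adjusted p = 0.138), and from spot 1 alone, patch included, 1.43 (adjusted p = 0.0594). HAP4 thus read higher in the mutant in each of these, at differences from 0.46 to 1.43.

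Several further settings ended the HAP4 call while leaving its direction. Without mutant 1, mutant 3, mutant 7 or parent 4 the adjusted p was 0.0611, 0.0606, 0.0804 and 0.0577, and with scanner gain as a block it was 0.0604. Within gain 600 the difference was 1.19 (limma adjusted p = 0.0917) and within gain 700, with 1 parent array, it was 0.41. Counting the most alike arrays of each strain, mutants 1 and 3 and parents 6 and 8, as 1 sample gave 1.07 (adjusted p = 0.0517).

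The genes most like HAP4 over the 8 arrays also carried the patch. GBP2, a nuclear RNA-binding protein of mRNA export, had a Pearson r of 0.989 with HAP4, PAM17, a part of the mitochondrial import motor, 0.983, and PTR2, the peptide transporter, 0.982 (n = 8 arrays, a description only). Each had 1 of its spots in the dim area of parent 2, where the neighbours' medians were -0.81, -0.84 and -1.04. The r values were 0.980, 0.932 and 0.961 with patch spots left out. PTR2 rose by 0.96 in the mutant in that fit (limma adjusted p = 0.000898) and GBP2 by 0.49 (adjusted p = 0.00566), while PAM17 differed by 0.19 and did not pass. Because these genes were picked for their likeness to HAP4 over the same 8 arrays, a rise was favoured beforehand and the p-values are no separate support.

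The genes that the activators are known to act on were grouped by activator from textbook knowledge, with some genes in more than 1 group. The lists were chosen with earlier results of these data known, so their counts are a description and no independent support. Of 14 Cat8 and Sip4 targets 13 fell in the mutant, 0 rose and 1 did not pass, and the median difference was -2.26, where 14.0% of all genes were called lower and the median over all genes was 0.05. With median scaling 7 passed and with the arrays of gain 700 alone 8, all of them lower. ICL1, isocitrate lyase of the glyoxylate cycle, read 7.37, 7.54, 7.52 and 7.18 on the mutant arrays, against 12.59, 12.45, 12.50 and 12.46 on the parent arrays. Those values lay far apart in every slide row. The 4 targets with the smallest adjusted p were ICL1 at -5.10 ± 0.11 (SE, n = 4 per strain, limma adjusted p = 1.7e-10), the gluconeogenic bisphosphatase FBP1 at -4.26, the carnitine acetyltransferase YAT1 at -5.32 and malate synthase MLS1 at -3.75. In the mutant ICL1, FBP1 and MLS1 were above background on only 2 arrays and YAT1 on 3, so the sizes rest in part on background readings. Among the 13 that fell the smallest differences were those of ACS1 at -0.93, JEN1, the lactate transporter gene, at -0.81 and MDH2, the cytosolic malate dehydrogenase gene, at -0.69. The gene that did not pass was CAT2, the major carnitine acetyltransferase, at -0.14 (adjusted p = 0.753).

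One CAT2 spot also lay in the dim patch of parent 2, with 764 units over background against 2618 for the other spot. With patch spots left out CAT2 had levels of 10.30, 10.23, 9.66 and 10.14 on the mutant arrays, against 10.05, 10.67, 10.56 and 10.40 on the parent arrays. The strains still overlapped, and the difference was -0.34 (limma adjusted p = 0.164).

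Adr1 targets did not move one way. Of 21 measured 6 fell, 2 rose and 13 did not pass, with a median of -0.01, where 14.0% of all genes were called lower and 12.7% higher. With detection required on all 4 arrays of a strain, 7 of 15 targets were called, near the share of all such genes, 738 of 1536. The falls with the smallest adjusted p were those of ADY2, ATO3, ADH2 and SPS19. The acetate transporter gene ADY2 was at -2.32, the alcohol dehydrogenase gene ADH2 at -3.28 and the peroxisomal reductase gene SPS19 at -1.18. ATO3, a relative of ADY2, was at background in the mutant, with an approximate bound of 1.64-fold lower. ADH2 and SPS19 were above background on only 2 mutant arrays. The genes that rose were GIP2, for a putative regulatory partner of the phosphatase Glc7, by 0.76 and FOX2, for the multifunctional enzyme of beta-oxidation, by 0.75. ADH2 and ADY2 also stand in the Cat8 group, as does ACS1, acetyl-CoA synthetase, which fell by 0.93. With array weights 13 of the 21 passed, 6 higher and 7 lower, where 3034 of all 6256 genes did. With 75th percentile scaling 2 of the 21 passed, with median scaling 3 and with the arrays of gain 700 alone 2, all of them lower.

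Targets of the Hap2/3/4/5 complex fell more often than they rose. Of 26 measured 10 fell, 2 rose and 14 did not pass, with a median of -0.34. Over all genes 14.0% were called lower and 12.7% higher. When only genes that every array of either strain detected were kept, 12 of 24 targets were called. That was near the share for all genes so kept, 738 of 1536. Of these 12 targets 10 were lower and 2 higher, beside 428 lower and 310 higher among the 738. COX5A, a cytochrome oxidase subunit, was at -1.25 ± 0.13 (SE, n = 4 per strain, limma adjusted p = 4.63e-05), SDH2, the iron-sulfur subunit of succinate dehydrogenase, by -1.34, HEM1, the first enzyme of heme synthesis, by -0.75 and QCR6 of the bc1 complex by -0.72. COR1 and QCR2, the core subunits of the bc1 complex, rose by 0.49 and 0.37, although their mutant and parent ranges overlapped. CYC1, cytochrome c isoform 1 and the best known target of the complex, differed by -0.34 and did not pass. HAP4, COR1 and QCR2 thus read higher in the mutant, while HAP3 and the 10 targets called lower fell. Any relation between them was not tested. Of the 26 genes 21 were above background on all 8 arrays. With 75th percentile scaling, median scaling or the arrays of gain 700 alone, 0 of the 26 passed by limma (7, 3 and 6 at an unadjusted p under 0.05), with medians of -0.42, -0.48 and -0.49.

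Hap1 targets were split. Of 12 measured 4 fell, 3 rose and 5 did not pass, with a median of -0.20, beside 14.0% of all genes called lower and 12.7% higher. Where a strain had the gene above background on all 4 arrays, 4 of 8 targets were called, 3 higher and 1 lower. That share was near the 738 of 1536 for all such genes. CYC7, the hypoxic isoform of cytochrome c, rose by 1.15, CYB2, the lactate dehydrogenase of the intermembrane space, by 1.08 and CTT1, the cytosolic catalase, by 0.61. Of those that fell, ERG11 of sterol synthesis was at -0.75 and SOD2, mitochondrial superoxide dismutase, at -0.46. ERG11 was above background on only 2 mutant and 3 parent arrays. The other two, CYB5 for cytochrome b5 and YHB1 for flavohemoglobin, passed the test but were at background on all mutant arrays, so neither a size nor a bound is given for them. With either scaling alternative or gain 700 alone 0 of the 12 passed (limma, 3, 1 and 3 at an unadjusted p under 0.05 for 75th percentile scaling, median scaling and gain 700).

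**Figure D5:**
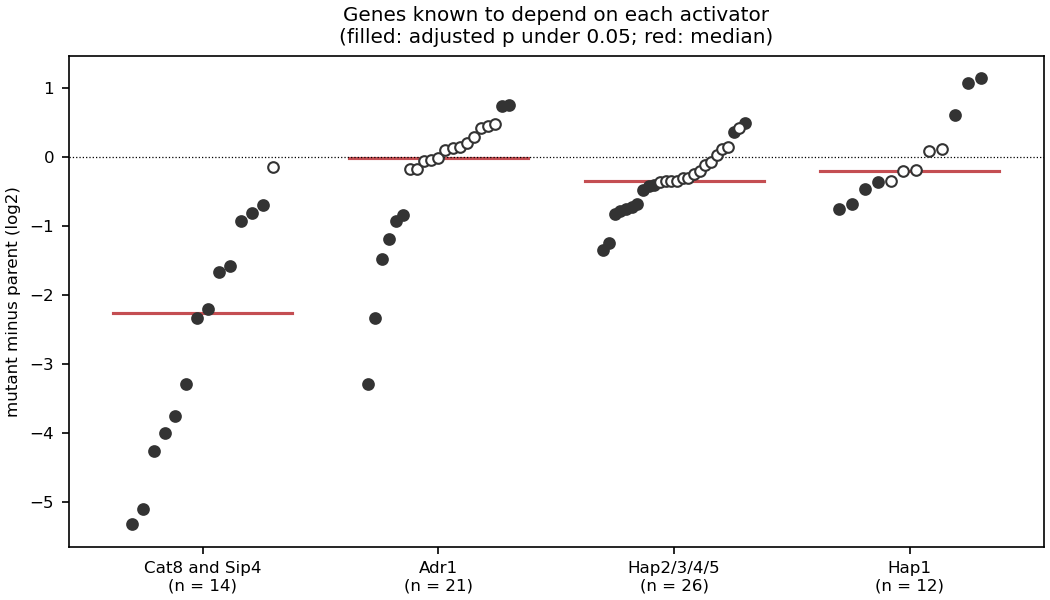
Difference between mutant and parent in log2 (vertical axis) of genes known to depend on Cat8 and Sip4, Adr1, the Hap2/3/4/5 complex and Hap1, each point 1 gene in order of its value and the red line the median. Filled points passed the adjusted threshold; the medians are -2.26, -0.01, -0.34 and -0.20.

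Among 13 genes for the Snf1 kinase, its regulators and the glucose repressors, 1 fell and 0 rose, 12 not passing, where 26.6% of all genes were called, and the median was 0.01. The one that fell was SIP2, for a beta subunit of the Snf1 complex, at -0.53 ± 0.12 (SE, n = 4 per strain, limma adjusted p = 0.00618). With either scaling alternative or gain 700 alone SIP2 did not pass. SNF1, the catalytic subunit, differed by 0.07 and HXK2, the hexokinase needed for glucose repression, by 0.01, and neither passed. Both were above background on only 2 mutant and 3 parent arrays. MIG1, the glucose repressor, was above background on 0 mutant and 2 parent arrays and differed by -0.18, which did not pass. Only 2 of the 13 genes were above background on all 8 arrays. With detection required on all 4 arrays of a strain, 2 of 5 were called, 1 higher and 1 lower, beside 738 of 1536 of all genes.

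The 10 other transcription factors of nonfermentable carbon, fatty acid and retrograde genes had a median of 0.09, and 1 rose, 0 fell and 9 did not pass, beside the same 26.6% of all genes. USV1, a zinc finger factor of growth on nonfermentable carbon, rose, with a difference of 0.95 ± 0.15 (limma adjusted p = 0.000757, SE, n = 4 per strain). Its spots were above background on every array, and it did not pass with either scaling alternative or with gain 700 alone. ERT1, a close relative of Rds2, differed by 0.28, PIP2, the oleate-responsive factor, by -0.05 and RTG3 of the retrograde response by -0.09. None of these passed, and each was above background on only 2 mutant and 3 parent arrays. Of the 10 factors only 1 was above background on all 8 arrays. With detection required on all 4 arrays of a strain, 1 of 3 factors was called, beside 738 of 1536 of all genes.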

How the data were processed

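RNA of 4 mutant and 4 parent samples was read on 8 one-colour arrays of 1 slide. The Cy5-labelled cRNA was made from 0.5 µg of total RNA, per the labels' protocols. Per the file headers, arrays were scanned at 635 nm and read with GenePix Pro 6.1.0.4 without normalization, and the deposited tables hold, for each spot, its intensity, the percent of its pixels that were saturated and a score of signal to noise, over 12512 spots per array. A deposited value table holds the authors' intensity per probe. By its values it is quantile-normalized, linear and floored at 0, with column medians of 75.2, 75.1, 78.4 and 79.4 in mutant columns 1, 3, 5 and 7, and 76.6, 76.1, 77.0 and 75.5 in parent columns 2, 4, 6 and 8. The constant subtracted in it is unknown.

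Spot medians were corrected with normexp (offset 50), taken to log2, quantile-normalized and the 2 spots averaged per probe, in limma 3.58.1 (R 4.3.3). The offset understates changes of dim genes. Strains were compared with lmFit and eBayes, 4 against 4, two-sided, with Benjamini-Hochberg adjustment over 6256 genes and calls at 0.05. P-values measure the spread between these samples, which the design text describes as independent biological samples. The number of arrays limits the precision. For a gene at background in all of 1 strain, the bound sets each array of that strain to a floor or to its own level, whichever is higher. The floor is the lowest level that was above background on that array. The other strain keeps its readings, also where the gene was at background, so the bound is approximate. Symbols were updated for 5756 of 6256 systematic names with a table of assembly R64. The steps were tested on simulated data, with changes put only into genes of above-median brightness. Changes in dim genes, dim patches and changes as small as those of most activators were not simulated.

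The members and lists were chosen with earlier results of these data known. Named genes were the 9 members, up to 4 called genes per direction with the smallest adjusted p in each list, and the 3 genes most correlated with the called member of largest difference detected on every array of the strain where it is higher. Other genes named (ACS1, JEN1, MDH2, CAT2, COR1, QCR2, CYC1, SNF1, HXK2, MIG1, ERT1, PIP2, RTG3) were chosen after their values were seen. The planned search for promoter motifs was not run. There were 26 alternatives, 3 of them added after the data were seen (each spot alone, and spots in dim patches left out).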

Additional observations from a re-analysis of the deposited data

Results flagged for a closer look

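HAP3 on parent 8, at 6.98, lay apart from the other 3 parent arrays, the nearest of which was at 7.13. The gap was 0.933 of the parent range, above Dixon's critical value at 95% for 4 samples. HAP3 was not above background on that array. Chance flags about 1 group in 20, and 18 groups were examined for the 9 genes.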

How the results depend on the processing

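Counts are of genes called by limma unless stated. The strains share no replicate number, so samples could not be paired by number, and slide row, which sets 1 mutant beside 1 parent array, was used as a block. None of 222 recomputed differences of the 9 activators changed sign, all of them being drawn from the same arrays. Leaving out 1 array at a time gave 5 to 6 activators called, 1205 to 1701 of all genes, 13 to 13 Cat8 and Sip4 targets, 8 to 10 Adr1 targets, 9 to 12 Hap2/3/4/5 targets, 5 to 7 Hap1 targets, 1 to 2 upstream genes and 1 to 2 other factors. With 75th percentile scaling, which moved the median of all genes to 0.21, counts were 57 of all genes, 0 activators (3 unadjusted), 2 Adr1 targets, and 0 in the Hap2/3/4/5 (7), Hap1 (3), upstream (1) and other (1) lists. With median scaling, at a median of 0.15, they were 37, 0 activators (3), 7 Cat8 and Sip4 targets, 3 Adr1 targets, and 0 in the Hap2/3/4/5 (3), Hap1 (1), upstream (0) and other (1) lists. Relative to those medians HAP4 was at 0.54 and HAP5 at 0.36 under either scaling, and HAP2 at 0.00. Gain 700 alone, with 3 arrays, gave 45 of all genes, 0 activators (1), 8 Cat8 and Sip4 targets, 2 Adr1 targets, and 0 in the Hap2/3/4/5 (6), Hap1 (3), upstream (1) and other (1) lists. Gain 600 alone gave 2 upstream genes and 2 other factors. When 1 strain had to have a gene above background on each of its 4 arrays, which leaves 4 activators, counts were 738 of 1536 genes, 2 activators, 4 Hap1 targets and 2 upstream genes. On all 8 arrays, which leaves 2 activators, they were 298 of 582 genes, 1 activator, 3 Cat8 and Sip4 targets, 3 Adr1 targets, 4 Hap1 targets and 0 upstream genes (1 unadjusted). Array weights gave 3034 genes, 13 Adr1 targets, 2 upstream genes and 3 other factors. Spot 1 alone gave 1106 genes, 3 activators, 5 Hap2/3/4/5 targets and 3 other factors, and spot 2 alone 830 genes, 3 activators, 7 Hap2/3/4/5 targets, 2 Hap1 targets and 0 upstream genes (1 unadjusted). Slide row as a block gave 2 upstream genes and 2 other factors, and gain as a block, spot means and the authors' value table each gave 2 other factors. The cause of these moves was not tested. The filters and subsets also leave fewer genes or arrays. Signal over background limits HAP2, HAP3, HAP5, HAP1, RDS2 and SIP4 most, which were above background on at most 2 mutant arrays.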

Other observations

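Local differences in brightness also touched spots of other activators. Around the 18 spots of the 9 genes, the median deviation of neighbouring spots from the other arrays of the strain ran from -0.81 to 0.49 on the 8 arrays, and it was over 0.25 in size for 29 of 144 pairs of spot and array. On parent 2 it was 0.30 around both SIP4 spots, 0.49 and 0.28 around the HAP2 spots and 0.33 around RDS2 spot 2, and SIP4, HAP2 and RDS2 were highest there among the parent arrays. On parent 8 it was 0.32 and 0.33 around the ADR1 spots, and ADR1 was highest there. On mutant 5 it was 0.44 around HAP5 spot 1 and -0.41 around HAP5 spot 2, the array on which HAP5 was highest. Without parent 2 the differences of SIP4 and RDS2 were -0.72 and -0.45 and both were still called (limma adjusted p = 0.00947 and 0.0124), and HAP2, at 0.32, did not pass. Without parent 8 ADR1 was at -0.12 and did not pass. The part of these local differences in the values was not tested.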
